A study of Mus musculus with 12 samples.

Results

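The 10 genes of the unfolded protein and integrated stress response (Hspa5, Pdia4, Sdf2l1, Dnajb9, Herpud1, Xbp1, Atf4, Ddit3, Chac1 and Trib3) were followed in brain RNA of mice with cerebral ischemia. They were taken by symbol, which gave 11 rows for the 10 genes among the 31208 genes of the table. The extra row is a second identifier named Ddit3, which lies inside the same stretch of chromosome 10 and held at most 1 count in any mouse, so the other row is used below. All 12 mice were C57BL/6 and 8 weeks old, with 4 mice per group. The sham group had no ischemia. The ischemia + vehicle and ischemia + lactate groups had 6 h of left middle cerebral artery occlusion with a filament, and vehicle or lactate had been injected into the cerebral ventricles beforehand. The methods name D-lactate, while the sample labels name lactate. Whether sham mice received an injection is not given in the sources used here, and no group received lactate without ischemia. The question is how these stress genes responded to ischemia with and without added lactate.

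When unfolded proteins collect in the endoplasmic reticulum (ER), the sensors IRE1, PERK and ATF6 start the unfolded protein response. ATF6 is cut to release a transcription factor, IRE1 splices the Xbp1 mRNA so that it encodes an active factor, and PERK phosphorylates eIF2α, which slows translation in general but favors translation of ATF4. Other kinases phosphorylate eIF2α when amino acids, heme or other resources run short, and this shared route is the integrated stress response. The first branches raise ER chaperones and degradation factors, while ATF4 and its target CHOP raise genes of amino acid supply and, when stress persists, of cell death. Ischemic brain tissue is known to engage both routes. Gene counts show mRNA amount only, so neither Xbp1 splicing nor ATF4 translation was measured.

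The upstream stretches of members that hold known response elements are shown first, for reference beside the results. The window from 250 bases before to 50 bases after each RefSeq start (GRCm38.p6) was searched on both strands for 4 elements. ERSE, read by ATF6 with NF-Y, was searched as CCAAT and CCACG with 9 bases between them. ERSE-II was searched as ATTGG and CCACG with 1 base between them. CARE, read by ATF4 and CHOP dimers, was searched as TGATG and AA with 1 base between them, and the UPRE core, read by XBP1 and ATF6, as TGACGTG. ERSE was found in 0.119% of the 32851 windows of all genes, ERSE-II in 0.0365%, CARE in 3.97% and the UPRE core in 2.01%. In the upstream stretches below, written 5′ to 3′ on the + strand, capitals mark the letters of an element. CARE reads TT, 1 base and CATCA on this strand.
Hspa5, chr2:34771921-34771969, UPRE core: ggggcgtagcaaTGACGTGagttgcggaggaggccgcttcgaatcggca
Hspa5, chr2:34772025-34772043, ERSE: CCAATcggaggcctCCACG
Herpud1, chr8:94386305-94386399, CARE then ERSE-II: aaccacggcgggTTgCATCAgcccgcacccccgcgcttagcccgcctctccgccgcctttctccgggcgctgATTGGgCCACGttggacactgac
Chac1, chr2:119351037-119351068, CARE: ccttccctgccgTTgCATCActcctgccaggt

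Hspa5 was the member with ERSE, whose first base lies 65 bases before the RefSeq start, and its UPRE core begins 157 bases before it. The ERSE falls inside the first exon of the longest transcript that GENCODE M21 annotates. Herpud1 was the member with ERSE-II, 52 bases before its start, and carried CARE as well. CARE was also found in Chac1 and, 14 to 21 bases past the start position, in Trib3. The windows of the other 6 members held none of the 4 letter patterns, which says only that these exact letters were not in these 300 bases.

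All 12 libraries were brain RNA read as full-length cDNA on a nanopore instrument, with total counts between 6815920 and 10677224 per mouse. Neuronal, astrocytic, microglial and oligodendrocyte markers were detected in each mouse. Before the member results, 2 libraries need naming. Vehicle mouse 2 held 1841 CPM (each gene's counts scaled to a common library total) summed over 6 choroid plexus markers, while the other vehicle mice held 4.55 to 14.8, sham mice 1.22 to 4.62 and lactate mice 9.70 to 18.8. Vehicle mouse 1 differed from the other vehicle mice by a chi-square per gene of 32.1 to 36.2, while pairs among those 3 mice gave 14.6 to 16.7, and it had the highest neuronal marker sum of all mice at 4772 CPM. Member values without these mice are given where they change a call against sham. For the wider pathway only counts and ranges over the fits that left out 1 mouse are given. Because tissue was measured in bulk, fewer cells of a type and less RNA per cell cannot be told apart.

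**Figure D1:**
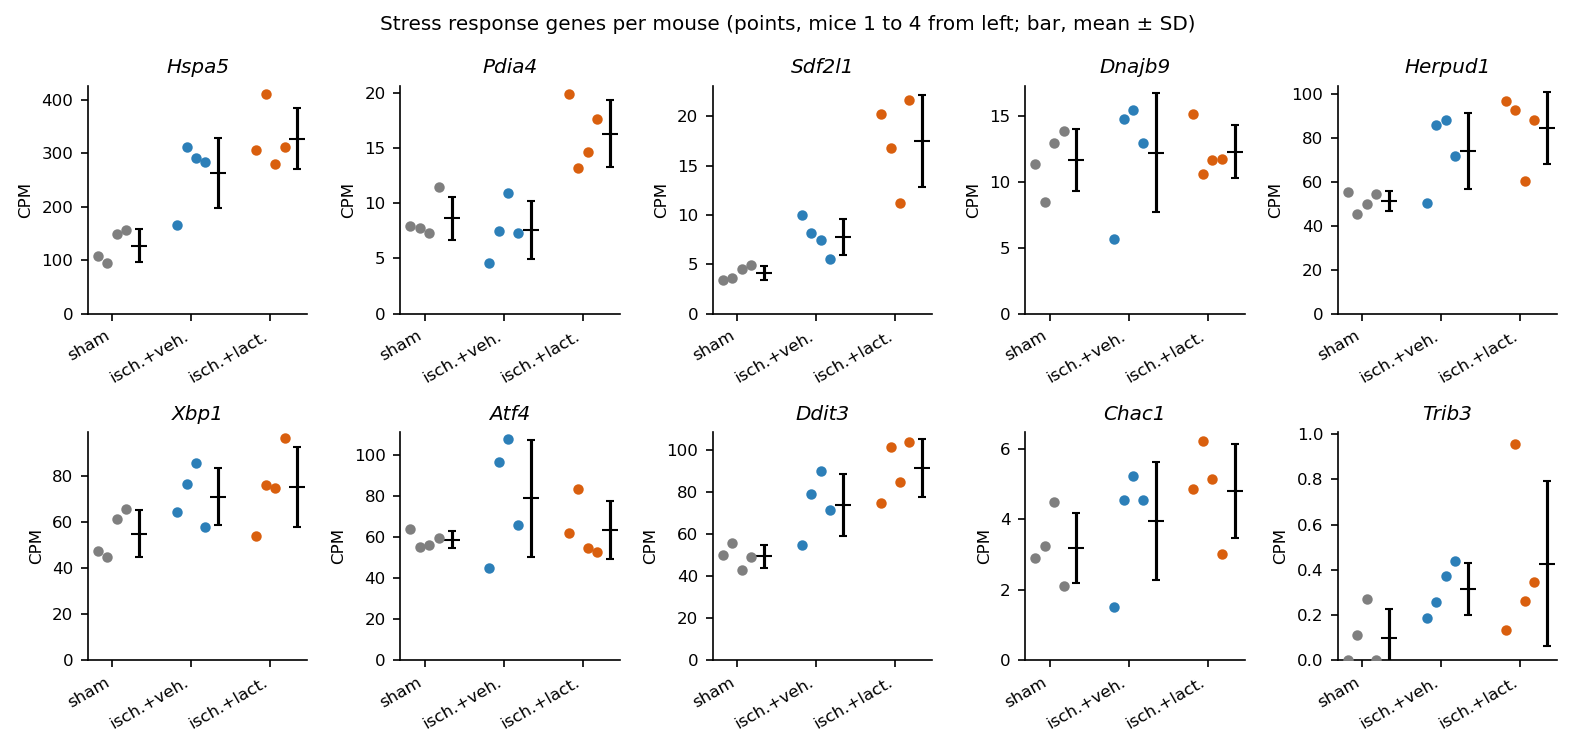
Level of each of the 10 genes in CPM (vertical axis from 0), one panel per gene, in sham, ischemia + vehicle and ischemia + lactate mice. Colored points are single mice in the order 1 to 4 and black bars are mean ± SD (n = 4). Sdf2l1 separates all 3 groups, Pdia4 separates the lactate mice from both other groups, and Trib3 stays under 1 CPM.

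The members that act in protein folding in the ER are given first. Hspa5 encodes BiP, the main Hsp70 chaperone of the ER lumen, which also holds the sensors inactive (chr2:34771970-34777547). Its level was 108, 94.6, 148 and 157 CPM in sham mice 1 to 4. In vehicle mice 1 to 4 it was 166, 312, 291 and 283 CPM. Lactate mice 1 to 4 had 305, 410, 280 and 312 CPM. Every ischemic mouse lay above every sham mouse, although vehicle mouse 1 stood just above the highest sham mouse, and the vehicle and lactate mice overlapped. Counts behind these values were 818 to 3422 per mouse. The means were 127 ± 30.4 CPM in sham, 263 ± 65.6 with vehicle and 327 ± 57.0 with lactate (SD, n = 4).

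In edgeR's quasi-likelihood test with Benjamini-Hochberg adjustment over all tested genes, Hspa5 rose 2.12-fold with vehicle against sham (95% interval 1.54 to 2.92, adjusted p = 0.0227). It rose 2.63-fold with lactate against sham (2.055 to 3.37, adjusted p = 1.90e-04). Between lactate and vehicle the fold was 1.23 with an interval of 0.93 to 1.63, which includes no difference. The vehicle call was close to the threshold. It was lost in 6 of 8 fits that left out 1 mouse, namely sham mouse 1, 2 or 3 (adjusted p = 0.0945, 0.0902 and 0.0578) or vehicle mouse 2, 3 or 4 (0.0723, 0.0751 and 0.0526), with the log2 fold change between 0.99 and 1.25 over all 8. Without vehicle mouse 1 it was 1.25 (adjusted p = 0.00199). The lactate call against sham held in all 8.

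Sdf2l1, an ER protein that works with BiP and its J-protein partners in holding client proteins, had the largest change of the members with lactate against sham (chr16:17130138-17132383). Sham mice 1 to 4 had 3.43, 3.57, 4.48 and 4.93 CPM. Vehicle mice had 10.02, 8.16, 7.47 and 5.58 CPM, and lactate mice had 20.3, 16.8, 11.2 and 21.7 CPM. No mouse of one group fell within the range of another, and lactate mouse 3 came nearest to the vehicle group. The counts were 26 to 187 per mouse, so Sdf2l1 is a low transcript here. It rose 4.35-fold with lactate against sham (3.06 to 6.17, adjusted p = 1.04e-04). With vehicle against sham the fold was 1.96 (1.35 to 2.84), which did not pass after adjustment (adjusted p = 0.0877, edgeR). Its close relative Sdf2 was 171 CPM in sham, 149 with vehicle and 177 with lactate, with adjusted p of 0.724 and 0.752 against sham.

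Pdia4, a protein disulfide isomerase that forms and rearranges disulfide bonds in the ER, was called with lactate and not with vehicle (chr6:47796141-47813430). Its values were 7.91, 7.80, 7.33 and 11.5 CPM in sham mice and 4.59, 7.51, 10.95 and 7.34 CPM in vehicle mice. Lactate mice had 19.9, 13.2, 14.6 and 17.6 CPM. Each lactate mouse lay above all 8 other mice, while sham and vehicle overlapped. Pdia4 rose 1.93-fold with lactate against sham (1.43 to 2.59, adjusted p = 0.00870) and was 0.90-fold with vehicle against sham (0.60 to 1.34, adjusted p = 0.852). Sham mouse 4 was apart from the other sham mice, and without it the lactate log2 fold change was 1.12 (adjusted p = 0.00676) instead of 0.95.

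Dnajb9, also called ERdj4, is a J-protein cochaperone that assists BiP and ER-associated degradation and is regarded as a target of XBP1 (chr12:44205559-44210326). It was 11.3, 8.47, 12.9 and 13.8 CPM in sham mice, 5.62, 14.8, 15.4 and 12.9 in vehicle mice and 15.1, 10.54, 11.6 and 11.7 in lactate mice. The groups overlapped throughout. Fold values were 1.07 (0.69 to 1.65) with vehicle and 1.08 (0.81 to 1.43) with lactate against sham, with adjusted p of 0.923 and 0.767. An increase with lactate beyond 1.43-fold lies outside the interval.

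Herpud1 is an ER membrane protein that assembles the degradation machinery around the ligase HRD1 (chr8:94386438-94395377). Sham mice had 55.4, 45.5, 49.8 and 54.3 CPM, vehicle mice 50.3, 86.0, 88.3 and 71.9, and lactate mice 96.8, 92.6, 60.5 and 88.1. All lactate mice lay above all sham mice, whereas vehicle mouse 1 lay inside the sham range. Herpud1 rose 1.69-fold with lactate (1.36 to 2.10, adjusted p = 0.00544). With vehicle the fold was 1.48 (1.14 to 1.93, adjusted p = 0.172), and without vehicle mouse 1 the log2 fold change was 0.72 (adjusted p = 0.0131).

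Xbp1 encodes the factor whose mRNA is the substrate of IRE1 (chr11:5520659-5525893). It was 47.3, 44.8, 61.0 and 65.7 CPM in sham mice, 64.2, 76.3, 85.4 and 57.7 in vehicle mice and 53.8, 76.0, 74.6 and 96.1 in lactate mice. Most ischemic mice were above the sham mean of 54.7 ± 10.2 CPM, yet both ischemic groups overlapped sham. The fold was 1.33 with vehicle (1.02 to 1.72, adjusted p = 0.320) and 1.40 with lactate (1.08 to 1.82, adjusted p = 0.0831). Leaving out lactate mouse 1 gave a lactate log2 fold change of 0.62 (adjusted p = 0.0337).

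Of the ATF4 and CHOP branch, Ddit3 was called with lactate and Atf4 and Chac1 were not called against sham in either ischemic group. Atf4, the transcription factor made when eIF2α is phosphorylated, was 64.2, 55.4, 56.0 and 59.6 CPM in sham mice (chr15:80255184-80257541). It was 44.96, 96.5, 108 and 66.2 CPM in vehicle mice and 61.8, 83.7, 54.9 and 53.0 in lactate mice. The spread was widest with vehicle, where mice 2 and 3 were high and mouse 1 was under the sham range. The lactate mice overlapped sham. Folds against sham were 1.37 with vehicle (0.98 to 1.93, adjusted p = 0.397) and 1.10 with lactate (0.89 to 1.37, adjusted p = 0.581).

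Ddit3 encodes CHOP, the factor that ATF4 induces and that favors cell death when stress persists (chr10:127290774-127296288). Sham mice had 49.8, 55.5, 42.6 and 49.2 CPM, vehicle mice 54.9, 79.0, 90.0 and 71.3, and lactate mice 74.9, 102, 84.7 and 104. All lactate mice exceeded all sham mice, and of the vehicle mice only mouse 1 reached into the sham range. Ddit3 rose 1.89-fold with lactate (1.54 to 2.31, adjusted p = 0.00104). With vehicle the fold was 1.53 (1.19 to 1.97, adjusted p = 0.121), and without vehicle mouse 1 the log2 fold change was 0.73 (adjusted p = 0.0184).

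Chac1, which degrades glutathione and is induced by ATF4, was a low transcript of 16 to 52 counts per mouse (chr2:119351229-119354381). It was 2.90, 3.23, 4.48 and 2.10 CPM in sham mice, 1.499, 4.53, 5.23 and 4.55 in vehicle mice and 4.87, 6.23, 5.14 and 3.02 in lactate mice. The groups overlapped, with 3 vehicle mice and 3 lactate mice above all sham mice. The vehicle fold was 1.26 (0.71 to 2.22, adjusted p = 0.759). The lactate fold was 1.55 (1.00 to 2.39, adjusted p = 0.183). Trib3, a pseudokinase that restrains ATF4 signaling, had 0, 1, 2 and 0 counts in sham mice, 2, 2, 3 and 3 in vehicle mice and 1, 8, 2 and 3 in lactate mice (chr2:152337422-152344032). It did not reach 1 CPM in any mouse and was left untested, and only lactate mouse 2 exceeded the detection floor of 3 counts.

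Counted over the members, 9 of 10 passed the filter on low values. A gene was called at an adjusted p under 0.05 with a fold of at least 1.5. With vehicle against sham 1 of 9 was called higher (Hspa5) and none lower, where 1.29% of all tested genes were called higher and 0.182% lower. Without adjustment 3 were called higher (Hspa5, Sdf2l1 and Ddit3), against 6.5% of all genes, and 2 had groups that did not overlap (Hspa5 and Sdf2l1), against 4.14%. The median log2 fold change was 0.46 over the 9 and 0.0031 over all tested genes. With lactate against sham 5 of 9 were called higher (Sdf2l1, Hspa5, Pdia4, Ddit3 and Herpud1) and none lower, where 7.88% of all tested genes were called higher and 2.52% lower. Without adjustment Chac1 made it 6, against 11.9% of all genes. The groups did not overlap for the same 5 members, against 10.4% of all genes. The median was 0.75 over the 9 and -0.028 over all genes. Both comparisons share the same 4 sham mice, so their values are set side by side and are not independent.

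**Figure D2:**
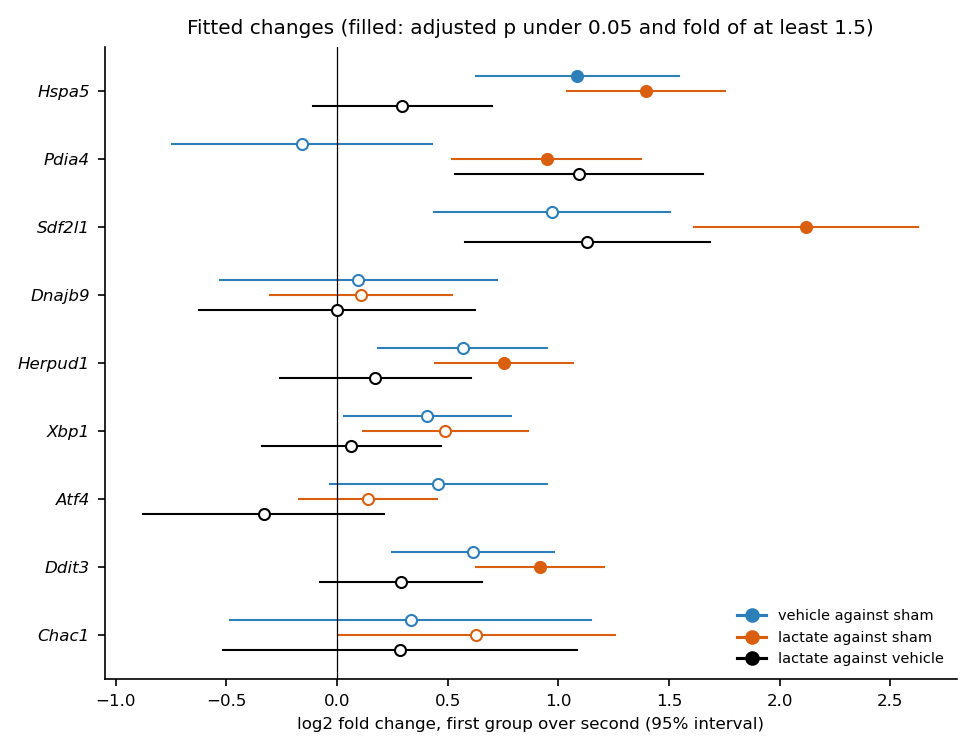
Fitted log2 fold change (horizontal axis, first group over second) with 95% intervals for the 9 tested genes in the 3 comparisons, given by color. Filled points were called at an adjusted p under 0.05 with a fold of at least 1.5. Hspa5 is filled in both comparisons with sham, and Sdf2l1 and Pdia4 have intervals above 0 between lactate and vehicle without a call.

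The direct comparison of lactate with vehicle asks whether the members differed between the ischemic groups. By edgeR 0 of 9 were called, where 0.0% of all tested genes were called higher and 0.00574% lower, so hardly any gene was called at all. Without adjustment 2 passed, Sdf2l1 and Pdia4, against 3.76% of all genes. The same pair had lactate mice above all vehicle mice, against 2.99%. Sdf2l1 was 2.19-fold with lactate over vehicle (1.49 to 3.22, adjusted p = 0.374), and Pdia4 was 2.13-fold (1.45 to 3.15, adjusted p = 0.416). The log2 fold change stayed between 1.01 and 1.30 for Sdf2l1 and between 0.91 and 1.32 for Pdia4 when single mice were left out. DESeq2 called both (adjusted p = 0.0184 and 0.0271), and over all settings the adjusted p ran from 0.0184 to 0.750 for Sdf2l1 and from 0.0271 to 0.757 for Pdia4.

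The remaining members had intervals that include no change between the ischemic groups. Ddit3 was 1.22-fold (0.95 to 1.58), Herpud1 1.13-fold (0.84 to 1.52) and Xbp1 1.05-fold (0.79 to 1.38). Atf4 was 0.79-fold (0.55 to 1.16). The wide intervals of Chac1 (0.70 to 2.12) and Dnajb9 (0.65 to 1.54) leave differences in either direction possible. A call against sham in one ischemic group and not in the other is thus no evidence of a difference between them, and for Herpud1 and Ddit3 the direct test did not show one.

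Within the vehicle group the same mice often held the highest and lowest places. In the vehicle group, mouse 3 was highest for 7 of the 9 tested members and mouse 1 lowest for 7, with Sdf2l1 the gene for which mouse 1 was highest. Among lactate mice the highest place was shared, with 3 members each for mice 1, 2 and 4. Vehicle mouse 2 was highest for 1 member, Hspa5, and vehicle mouse 4 was lowest for 2. Vehicle mice 2 and 3 had the highest summed neutrophil markers, 51.9 and 71.8 CPM over 7 genes. Vehicle mice 1 and 4 had 12.2 and 8.80, lactate mice 16.5 to 40.0 and sham mice 1.00 to 2.77. Of those 7, Ly6g, Camp and Ngp held at most 3 counts in every mouse. The sums of 2 glial lists were highest in the lactate mice. The 6 microglial markers summed to 279 to 303 CPM in lactate mice, 169 to 230 in vehicle mice and 232 to 270 in sham mice, and the 6 astrocyte markers to 960 to 1014, 794 to 871 and 592 to 889 CPM. Among the microglial markers 2 were called lower with vehicle against sham, and 1 higher and 1 lower with lactate. Among the astrocyte markers 1 was called higher in each of these comparisons. The 6 oligodendrocyte markers summed to 8859 to 9905 CPM in lactate mice, inside the sham range of 7064 to 11296, and to 5573 to 10459 in vehicle mice. Other sums were lower in every lactate mouse than in every sham mouse. The 6 neuronal markers summed to 3186 to 3727 CPM with lactate, 3754 to 4003 in sham and 3082 to 4772 with vehicle. The 6 endothelial markers summed to 53.1 to 72.8, 74.8 to 86.6 and 53.8 to 83.1 CPM in the same order of groups, and the 5 red blood cell markers to 375 to 499, 560 to 633 and 333 to 500.4 CPM. With lactate against sham 1 oligodendrocyte, 1 endothelial and 1 red blood cell marker were called lower, and 0 of the 6 neuronal markers were called by edgeR. All tested neutrophil markers were called higher, 2 of 2 with vehicle and 3 of 3 with lactate. The 6 monocyte and macrophage markers summed to 11.8 to 22.4 CPM with lactate, 7.74 to 13.2 in sham and 10.4 to 21.6 with vehicle, and 1 of them and 1 choroid plexus marker were called higher with lactate. The 6 meningeal fibroblast markers summed to 24.3 to 48.5, 38.5 to 43.8 and 33.0 to 52.4 CPM in lactate, sham and vehicle mice. The part of these marker differences in the member results was not tested.

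**Figure D3:**
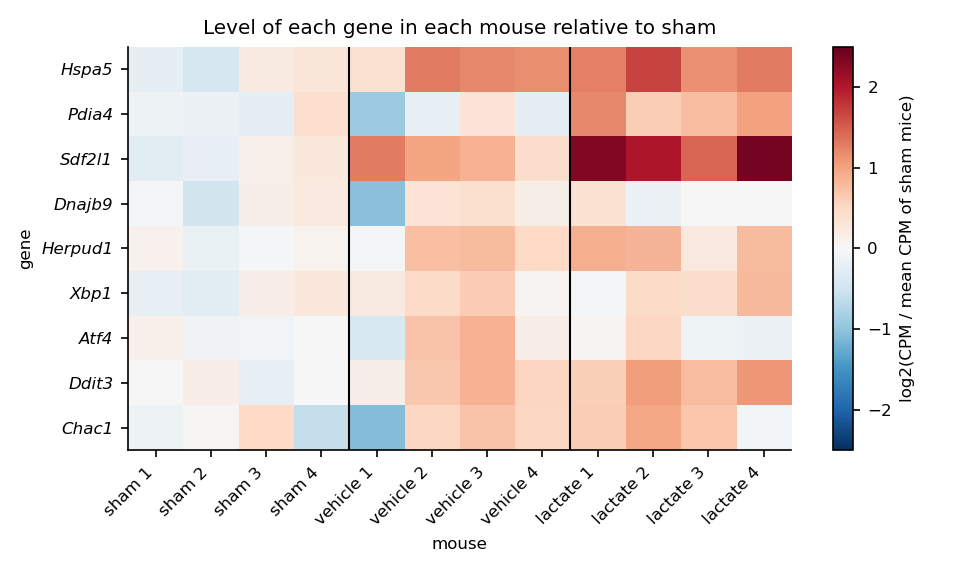
Level of each tested gene (rows) in each mouse (columns) as log2 of its CPM over the sham mean, red above and blue below sham, with lines between groups. Vehicle mouse 1 is near or below sham for most genes except Sdf2l1, and the Sdf2l1 row is darkest in the lactate mice.

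The wider pathway was examined in 8 lists with 114 further genes, of which 106 were tested against sham. Of all tested genes, 1.29% were called higher and 0.182% lower with vehicle, and 7.88% and 2.52% with lactate, so the counts below stand against a higher background with lactate. With vehicle against sham 3 were called, all higher, with a median log2 fold change over the lists of 0.12. With lactate against sham 20 were called higher and 1 lower, with a median of 0.20. The count with lactate was 14 to 19 when 1 mouse was left out, lowest without sham mouse 4.

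ER chaperones and folding enzymes held the most calls, 9 of 19 with lactate and 0 of 19 with vehicle, with medians of 0.59 and 0.33. Manf, a secreted protective ER factor, rose 2.44-fold with lactate, from 26.5 ± 3.20 to 63.2 ± 12.8 CPM (adjusted p = 2.73e-04, edgeR, n = 4). The disulfide isomerases Pdia6, Pdia3 and P4hb rose 2.07-fold, 1.99-fold and 1.71-fold. The glycoprotein chaperone Calr rose 1.79-fold and the ER Hsp90 gene Hsp90b1 1.83-fold, from 139 ± 14.9 to 250 ± 19.7 CPM. Creld2 rose 2.06-fold and the J-protein gene Dnajb11 1.501-fold, which is at the fold limit and fell below it in 4 of 8 fits without 1 mouse (log2 fold change 0.51 to 0.65 over the 8). Dnajc3, the ninth, rose 1.85-fold but its groups overlapped, and it kept the call in 7 of 8 fits without 1 mouse. With vehicle its fold was 1.56 (adjusted p = 0.212, edgeR). Dnajc3 is named here after its values were seen. Between lactate and vehicle none was called by edgeR, where 0.0% of all tested genes were called higher and 0.00574% lower. In 5 of the 19 every lactate mouse lay above every vehicle mouse, against 2.99% of all genes. These included Hsp90b1 at 1.44-fold, Pdia3 at 1.46-fold and Pdia6 at 1.62-fold, while the groups overlapped for Manf. DESeq2 called Pdia6 and Manf (log2 fold change 0.70 and 0.80, adjusted p = 0.0170 and 0.0395).

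Genes that act upstream of the members are given next. Eif2ak3, which encodes PERK, was 2.60 ± 0.650 CPM in sham, 2.03 ± 1.76 with vehicle and 2.06 ± 0.277 with lactate, and Atf6 was 13.0 ± 0.928, 14.4 ± 3.96 and 15.2 ± 1.46 CPM. Ern1, which encodes IRE1α, was under the filter at 0.38 to 1.24 CPM as group means. None of the 5 tested genes of the list of sensors and their proteases (Eif2ak3, Atf6, Atf6b, Mbtps1 and Mbtps2) and none of 11 eIF2 regulators was called in any comparison, counts too small to set apart from the background shares above. Without adjustment 2 of the 11 eIF2 regulators were called higher with vehicle, Ppp1r15a and Eif2b5, against 6.5% of all tested genes. Ppp1r15a, the inducible subunit that dephosphorylates eIF2α, was higher in every vehicle mouse than in every sham mouse, 21.7 ± 11.3 against 9.51 ± 1.78 CPM, at an adjusted p of 0.0963, and was 13.6 ± 3.14 CPM with lactate (adjusted p = 0.0925). Its constitutive counterpart Ppp1r15b was 6.78 ± 0.0695 CPM in sham, 8.64 ± 1.18 with vehicle and 8.02 ± 1.40 with lactate.

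In ER-associated degradation 1 of 15 genes was called with lactate, Derl3, a channel subunit, which rose 2.59-fold from 1.16 ± 0.302 to 2.94 ± 1.27 CPM and was called in 5 of 8 fits that left out 1 mouse (adjusted p up to 0.0685). None of the 14 tested genes of ER translocation and vesicle coats was called against sham. Both counts with lactate are near the 7.88% of all tested genes called higher, so neither is read as a result about its list.

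Among 12 tested transcription factors and effectors downstream of ATF4 and CHOP, 2 rose with vehicle, and 5 rose and 1 fell with lactate. Ddit4, an inhibitor of mTORC1 that hypoxia also induces, rose 2.503-fold with vehicle and 2.55-fold with lactate, at 37.7 ± 5.198, 92.2 ± 13.2 and 94.1 ± 4.20 CPM in the 3 groups. Atf3 was near absent in sham (0.470 ± 0.590 CPM) and widely spread with vehicle (18.5 ± 19.7) and lactate (6.38 ± 6.89). It was called in both, but lost the call in 3 of 8 vehicle fits without 1 mouse, where the adjusted p reached 0.0805, and in 3 of the 4 such lactate fits in which it was tested, where it reached 0.0671. In the other 4 it was under the filter, so the lactate call was kept in 1 of 8. Nupr1 rose 2.00-fold with lactate and Atf5 1.79-fold. The angiogenic factor gene Vegfa rose 1.92-fold with lactate, and its fitted fold with vehicle was 2.43 without a call (adjusted p = 0.134, edgeR). Vldlr, a lipoprotein receptor gene, fell to 0.64-fold with lactate (adjusted p = 0.0484). Leaving out single mice kept the call in 6 of 8 fits for Atf5, 3 of 8 for Vegfa and 1 of 8 for Vldlr. The lactate mice overlapped the sham mice for Atf3, Vegfa and Vldlr.

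Amino acid supply genes of the ATF4 program gave 5 calls of 17 with lactate and 0 with vehicle. Of all tested genes 7.88% were called higher with lactate and 1.29% with vehicle. Mthfd2, a mitochondrial folate enzyme, rose 2.21-fold, Psph, of serine synthesis, 1.67-fold and Slc3a2, the shared subunit of amino acid exchangers, 1.63-fold. Slc7a11, the cystine importer, rose 1.61-fold and Slc1a4 1.56-fold, each keeping the call in 2 of 8 fits without 1 mouse, with adjusted p up to 0.0842 and 0.0791 over those fits. Of 13 aminoacyl-tRNA synthetases, 1 was called with vehicle, Eprs1, at 1.74-fold (adjusted p = 0.0246, called in 3 of 8 fits without 1 mouse, with adjusted p up to 0.112), and 0 with lactate. The counts of 0 in these 2 lists are near the shares over all tested genes.

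**Figure D4:**
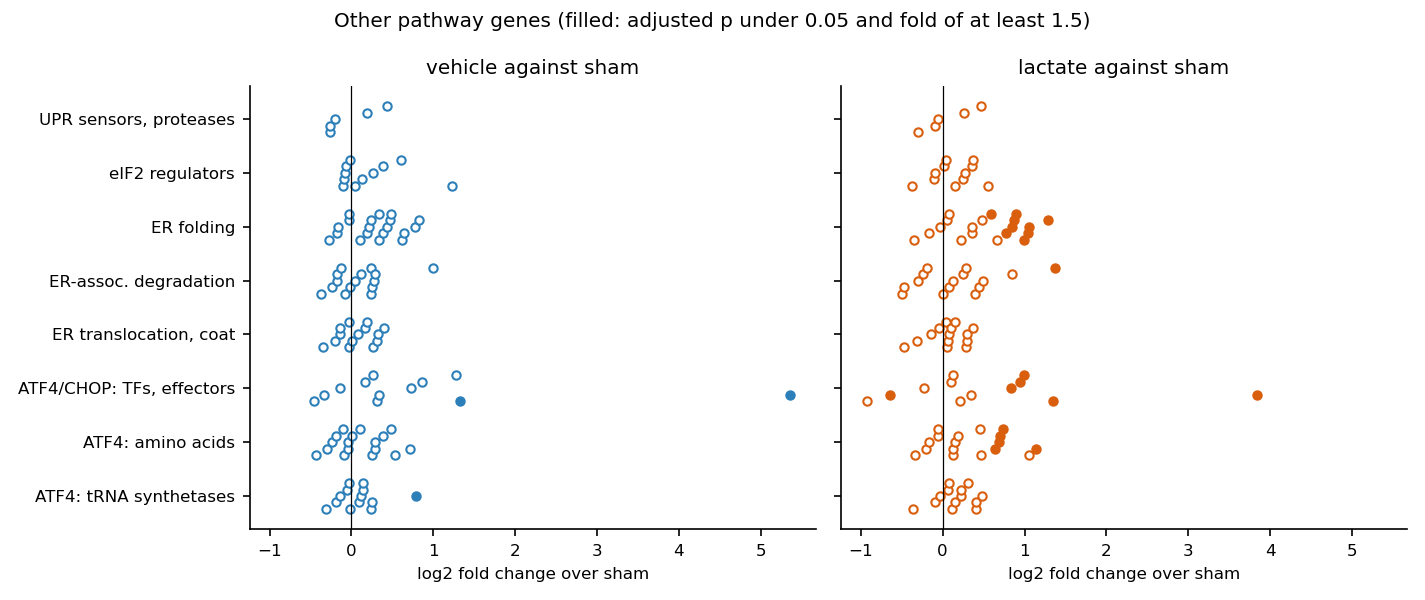
Log2 fold change over sham (horizontal axis) of the tested genes of 8 pathway lists (rows), with vehicle on the left and lactate on the right. Each point is 1 gene and filled points were called. Filled points number 3 on the left and 21 on the right, of which 9 are ER folding genes.

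ERSE letters were shared beyond Hspa5 and Herpud1, and this gene set was drawn up after the members' values were known, so it is described without a test. ERSE or ERSE-II was found in the windows of 49 genes, of which 2 are members and 10 are in the pathway lists. With lactate against sham 27 of the 49 were tested, 9 were called higher and 0 lower. All 9 were members or listed genes, and 12 such genes were tested. Of the 15 other tested genes 0 were called by edgeR, which at 7.88% called higher over all genes is near the background. The listed genes were chosen as stress genes with earlier results known, so nothing is read from the contrast of these counts. With vehicle against sham 26 were tested, and 1 was called higher (Hspa5) and 1 lower (Lrif1). The elements of the ER genes are shown so that the fixed and variable letters can be compared, each written in the direction that reads CCAAT or ATTGG first, with the fixed letters in capitals.
Calr, chr8:84847075-84847093, + strand: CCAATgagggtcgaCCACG
Creld2, chr15:88819520-88819538, - strand: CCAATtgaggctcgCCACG
Derl3, chr10:75893242-75893260, - strand: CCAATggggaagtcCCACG
Dnajb11, chr16:22857852-22857862, + strand: ATTGGcCCACG
Dnajc3, chr14:118937827-118937845, + strand: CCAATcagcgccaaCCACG
Hsp90b1, chr10:86705533-86705551, + strand: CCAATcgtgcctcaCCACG
Hsp90b1, chr10:86705638-86705656, - strand: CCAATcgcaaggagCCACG
Pdia6, chr12:17266491-17266509, + strand: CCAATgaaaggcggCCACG
Canx, chr11:50325800-50325818, - strand: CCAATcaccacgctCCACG
Ero1b, chr13:12565682-12565700, - strand: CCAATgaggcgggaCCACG
Syvn1, chr19:6046532-6046550, + strand: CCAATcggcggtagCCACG

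The first 8 elements belong to genes called with lactate and the last 3 to genes that were not. Canx, the membrane-bound relative of Calr, had a log2 fold change of 0.36, Ero1b, which oxidizes disulfide isomerases, 0.67 (adjusted p = 0.121) and Syvn1, the HRD1 ligase that Herpud1 binds, 0.082. Hsp90b1 carried 2 elements on opposite strands, and the element of Dnajb11 begins 8 bases into the transcript. Sdf2l1 and Pdia4, which had the largest fitted changes between the ischemic groups among the 9 tested members, had none of the searched elements in their windows, while Derl3, with an ERSE, had a larger fitted log2 fold change between those groups, 1.54 (adjusted p = 0.481).

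**Figure D5:**
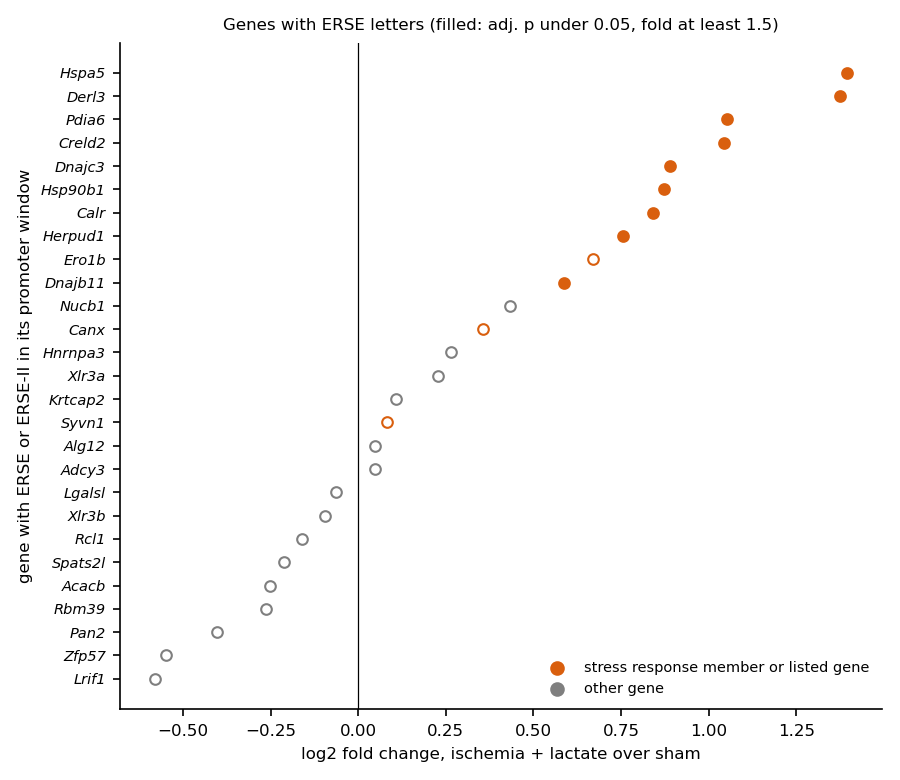
Log2 fold change with lactate over sham (horizontal axis) for the 27 tested genes (rows) whose promoter window holds ERSE or ERSE-II. Orange marks members and listed pathway genes, gray other genes, and filled points were called. The 9 filled points are all orange and the other genes lie from -0.58 to 0.43.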

How the data were processed

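Groups and mouse numbers were taken from the sample labels. The authors discarded ribosomal, short and poor reads, aligned the full-length ones with minimap2, and used pinfish and gffcompare to build isoforms and match them to annotated transcripts. The deposited counts are raw reads per gene, and the deposited CPM values are the same counts scaled to each mouse's total. The build named in the submitters' processing notes is GRCm38. How reads were counted per gene, with or without strand, is not given in the sources used here. The table lists 31208 genes, 4 further lines without a gene were dropped, and 0 per-sample columns were left unused. Columns of the authors' own tests (P values, false discovery rates and log2 fold changes between groups) were not used.

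The members and pathway lists were chosen with earlier results of these data known. Counts were tested over all genes with edgeR 4.0.16 in R 4.3.3 (TMM, quasi-likelihood, a gene needed 1 CPM or more in 4 or more mice of the pair of groups), and p-values were adjusted by the Benjamini-Hochberg method. The script was tested on simulated data. Fold changes are fitted and intervals are 95%. Named genes were all members, the called genes of each list (the 8 with the smallest adjusted p where there were more) and Ern1, Eif2ak3, Atf6, Ppp1r15a and Ppp1r15b. Alternatives were DESeq2 1.42.0, its size factors, no filter, Ensembl genes only, all 12 mice in one fit, the mouse number as a replicate block, other call rules and leaving out each mouse. The floor is 3 counts and covers counting error only, since reads carry no molecular identifiers. Promoters are RefSeq windows with 1 for each of the 10 members, and positions are from GENCODE M21. The labels number 4 replicates per group without naming animals, litters or batches, so p-values measure the spread between these samples. Python 3.11.15 was used.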

Additional observations from a re-analysis of the deposited data

Results flagged for a closer look

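Pdia4 in sham mouse 4 was 11.5 CPM, apart from the other sham mice at 7.33 to 7.91 CPM, with a gap of 0.860 of the group's range (above Dixon's 95% critical value). It was the 1 value of this kind among 27 groups of 4 mice, and chance gives about 1 in 20 such groups.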

How the results depend on the processing

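With lactate against sham the member calls numbered 5 or 6 under every alternative, and 14 to 26 other pathway genes were called. With vehicle against sham 1 member was called, but 3 with DESeq2, 3 without adjustment and 0 to 3 when 1 mouse was left out. The 3 other pathway genes became 5 with DESeq2, 14 without adjustment and 1 to 4 without 1 mouse. Between lactate and vehicle 0 members became 2 with DESeq2 and 2 without adjustment, and 0 other pathway genes became 2 and 6. The cause of these shifts was not tested. Same-numbered mice did not deviate together (correlations of -0.17 to 0.18), and the replicate block gave 1, 5 and 0 member calls in the 3 comparisons and 2, 22 and 0 other calls. Signs turned for small log2 fold changes when 1 mouse was left out. Against sham with vehicle, Dnajb9 ran from -0.034 to 0.35 and Pdia4 from -0.38 to 0.031. With lactate, Atf4 ran from -0.016 to 0.23 and Dnajb9 from -0.012 to 0.21. Between lactate and vehicle, Xbp1 ran from -0.073 to 0.19, Chac1 from -0.0012 to 0.46 and Dnajb9 from -0.24 to 0.13. Dnajb9 there was also 0.0044 with DESeq2, 0.0053 with its size factors, 0.037 with Ensembl genes only, 0.017 with all 12 mice and 0.054 with the replicate block. Trib3 was too low to test at this depth, and for the low genes Sdf2l1 and Chac1 counting error was not separated from the spread between mice.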
